A study of Homo sapiens with 10 samples.

Results

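Keratins are the intermediate filament proteins of epithelial cells, and 5 keratin genes, KRT7, KRT8, KRT10, KRT18 and KRT19, were followed through the hepatic differentiation of human embryonic stem cells. They were taken by gene symbol from an RNA-seq table of 12125 genes, in which all 5 were found. H1, an established line of hESCs, was kept in mTeSR1 on Matrigel, and cells were then given Activin A for 3 days, FGF4 and BMP2 for 4 days, HGF and KGF for 6 days, and OSM (Oncostatin M) for 8 days. Activin A was used at 100 ng/ml, FGF4 at 30 ng/ml, and each of the other factors at 20 ng/ml. All groups share this line and scheme, and each group is 1 library of bulk RNA: day 0 without any factor, days 1, 2 and 3 under Activin A, days 5 and 7 under FGF4 with BMP2, days 9 and 11 under HGF with KGF, and days 13 and 21, both of which the labels give as OSM. By the lengths of the steps, however, day 13 closed the HGF/KGF step, and it is used here as that. The labels call the cells hESCs on day 0, definitive endoderm (DE, early on day 1) up to day 3, hepatoblasts (early on day 5) up to day 11 and hepatocyte-like on days 13 and 21. A single line was differentiated, and nothing says that a day was repeated.

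Type I keratins (KRT10, KRT18 and KRT19 here) are acidic, type II keratins (KRT7 and KRT8) are basic or neutral, and a filament is built from pairs of a type I with a type II chain. KRT8 with KRT18 is the pair of simple epithelia and the keratin pair of adult hepatocytes, whereas KRT7 and KRT19 are in addition made by bile duct cells, and KRT19 by fetal liver progenitors. KRT10 belongs to the upper layers of the epidermis, where it pairs with KRT1, so that the name simple epithelial keratins applies to the other 4 genes.

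KRT7 (ENSG00000135480), KRT8 (ENSG00000170421) and KRT18 (ENSG00000111057) lie on chromosome 12, and KRT10 (ENSG00000186395) and KRT19 (ENSG00000171345) on chromosome 17. The deposited table places KRT7 at 52626304 to 52626932 on the plus strand, KRT8 at 53290971 to 53298829 on the minus strand, KRT18 at 53342670 to 53346596 on the plus strand, KRT10 at 38974369 to 38978847 on the minus strand and KRT19 at 39679869 to 39684560 on the minus strand. The table names no build for these positions. The interval given for KRT7 spans 629 bases, whereas the gene spans 19667 bases in GENCODE release 29 (GRCh38). KRT8 and KRT18 are neighbours on opposite strands, and in GENCODE their outermost transcripts overlap by 1084 bases. The deposited intervals of KRT8 and KRT18, by contrast, lie 43840 bases apart. KRT7 has the antisense gene KRT7-AS within its bounds. The libraries were made with a kit that does not mark strand, so reads from overlapping genes cannot be told apart by strand. Whether such reads entered these values was not tested.

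These genes share stretches of sequence with other genes, for KRT8 and KRT18 mostly with their pseudogenes, which bears on how reads were assigned to them. Of the 50-base windows of the reference transcript, 47.6% of those of KRT18 and 37.1% of those of KRT8 occur also in transcripts of other genes, against 10.8% for KRT7, 1.79% for KRT19 and 0.434% for KRT10. For KRT18 these are 45 genes, 43 of them named as its pseudogenes, and the others are KRT8 itself and PTPN14. Windows were matched on either strand and the 2 genes overlap on opposite strands, so the match to KRT8 need not reflect likeness of the chains. For KRT8 they are 38 genes, 33 of them named as its pseudogenes, and KRT18 is not among them. For KRT7 they are 9 genes and include KRT6A, KRT6B, KRT6C and KRT76, further type II keratins. For KRT18, the member with the largest shared part, the window held by the most other genes is shown, read from GENCODE release 29 on the strand of the gene, with capitals for the bases of the later exon.
KRT18: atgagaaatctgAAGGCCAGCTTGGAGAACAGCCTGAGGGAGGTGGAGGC
This window is coding sequence that runs from exon 5 into exon 6 (GRCh38, chr12:52951845-52952156, plus strand) and is found in 10 of its pseudogenes. None of the 50 pseudogenes named for KRT8 and the 67 named for KRT18 was among the genes of the table (0 of each). The values of KRT8 and KRT18 are therefore uncertain to the extent that reads could be split with these copies, and the size of this was not tested.

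The values are whole numbers that the authors normalized for GC content, and they are scores rather than read counts. The sum of a library lay between 2330948 and 2362740, the median was 81 or 82, and the maximum was 18734 in every library, held by 10 genes each time. From the maximum down to 712 the values fall into 50 levels that the libraries share, each held by 9 or 10 genes. The top 10 levels reach down to 2164, and level 1 lies 2.89-fold above level 2, nearly the 3.00-fold between levels 2 and 10. A value in this range thus gives a place among shared levels and not an amount, and a gene at 18734 cannot go higher. Values that 1 gene held per library came from genes of a limited range of GC content, as given below. A place is therefore not a plain rank among all genes of the library. These scores do not tell how deeply a library was sequenced. Days were compared on the log2(value + 1) scale, later minus earlier, which understates the change of low genes. A gene is called higher or lower at a difference of at least 2 (4-fold) with a larger value of at least 50. With 1 library per day, no difference has a replicate check and no p-value is given. In bulk RNA, fewer cells that make a keratin and less of its RNA per cell cannot be told apart.

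KRT8, the type II chain of the hepatocyte pair, reached the maximum on day 7 and was called lower again by day 21. Its values were 1438 on day 0, 937 on day 1, 2970 on day 2, 3864 on day 3, 6498 on day 5, 18734 on each of days 7, 9, 11 and 13, and 2024 on day 21. In levels counted from the top, it stood at 17 on day 0, 34 on day 1, 6 on day 2, 4 on day 3, 2 on day 5, 1 from day 7 to day 13 and 11 on day 21. Day 1 was thus the lowest library and the 4 libraries of days 7 to 13 the highest. Their ratio of 20.0 is set by the maximum and was 2.31 with the top 10 levels set to the lowest of them. The difference between days 0 and 3 was 1.43 on the log2 scale. Between days 3 and 7 it was 2.28, which was called higher, and between days 13 and 21 it was -3.21, which was called lower and is a 9.26-fold ratio of values. Both calls rest on moves within or out of the top 10 levels: with every value of those levels set to the lowest of them, the differences became 0 and -0.10. Between days 0 and 21 KRT8 differed by 0.49.

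KRT18, the type I partner of KRT8, was at the maximum in a single library, that of day 5. Its values were 2020 on day 0, 1324 on day 1, 2426 on day 2, 2796 on day 3, 18734 on day 5, 3860 on days 7 and 9, 4855 on days 11 and 13, and 1248 on day 21. Its levels from the top were 11, 19, 9, 7, 1, 4, 4, 3, 3 and 21 in the order of the days. The lowest library was day 21, with day 1 next to it, 15.01-fold below day 5, or 1.73-fold with the top 10 levels set to the lowest of them. None of its differences between the ends of the steps was called. They were 0.47 from day 0 to 3, 0.47 from day 3 to 7, 0.33 from day 7 to 13 and -1.96 from day 13 to 21. The last became -0.79 with the top 10 levels set to the lowest of them. Day 5 stood apart from the days on either side, by 2.74 against day 3 (called higher, as were 2.85% of all genes that passed the filter, with 2.24% lower) and by -2.28 from day 5 to day 7 (called lower, as were 1.34%, with 2.25% higher). All 3 of these values lie in the top 10 levels and the 2 differences are 0 when moves among those levels are set aside. ACTB, the cytoskeletal actin that held the maximum on days 0 to 3 and 7 to 13, stood at 4855 on day 5 and at 3428 on day 21, which are likewise moves among the top 10 levels. Whether the day 5 value of KRT18 depends on that library was not tested, as there is no other library of that day.

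KRT19, a type I keratin of bile ducts and fetal liver progenitors, was the only one of the 5 genes called higher on day 21 than on day 0. Its values were 266 on day 0, 284 on day 1, 703 on day 2, 936 on day 3, 2020 on day 5, 3861 on day 7, 2636 on day 9, 2164 on day 11, 1734 on day 13 and 1157 on day 21. Days 0 and 1 were the lowest and differed by 0.09, day 7 was the highest, and each library after day 7 was lower than the one before it. The peak on day 7 was 14.5-fold above day 0, or 8.14-fold with the top 10 levels set to the lowest of them. The difference was 1.81 from day 0 to 3, below the call, 2.04 from day 3 to 7, called higher, -1.15 from day 7 to 13 and -0.58 from day 13 to 21. The call between days 3 and 7 was lost, at 1.21, when the top 10 levels were set to the lowest of them. From day 0 to 21 KRT19 differed by 2.12, a 4.35-fold ratio, and both of these values lie below the top 10 levels.

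KRT7, the type II keratin of ducts, was low throughout and was listed at 0 during the Activin A step. Its values were 12 on day 0, 0 on days 1, 2 and 3, 1 on day 5, 22 on day 7, 47 on day 9, 66 on day 11, 22 on day 13 and 24 on day 21. Days 9 and 11 were the highest, and day 11 was the only library in which it reached 50, so that no difference between the ends of the steps passed the filter on low values. Within its library KRT7 stood between percentile 0.895 on day 3 and percentile 42.7 on day 11 of all genes. The interval of 629 bases given for it in the table covers a small part of the annotated gene.

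KRT10, the epidermal keratin, stayed within a narrow range. Its values were 34 on day 0, 35 on day 1, 41 on day 2, 34 on day 3, 52 on day 5, 41 on day 7, 60 on day 9, 48 on day 11, 54 on day 13 and 68 on day 21. The highest and the lowest library were 2.00-fold apart, the differences between the ends of the steps lay between 0 and 0.39, and none was called. From day 0 to 21 it differed by 0.98.

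**Figure D1:**
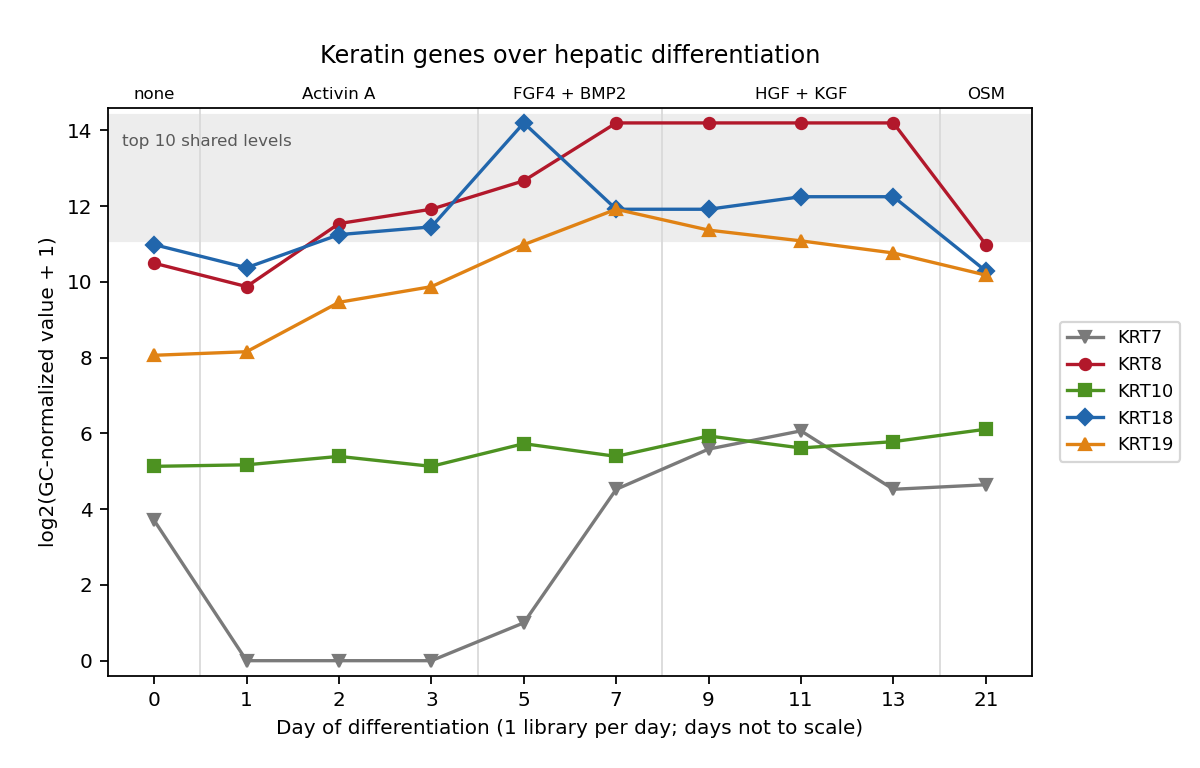
Values of the 5 keratin genes on the log2(value + 1) scale (vertical axis) in each library (horizontal axis, days not to scale), with 1 point per library, the factor of each step above the panel and the top 10 shared levels shaded. KRT8 lay at the maximum of 18734 on days 7 to 13 and KRT18 on day 5, KRT19 peaked at 3861 on day 7, KRT10 stayed between 34 and 68, and KRT7 was listed at 0 on days 1 to 3.

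**Figure D2:**
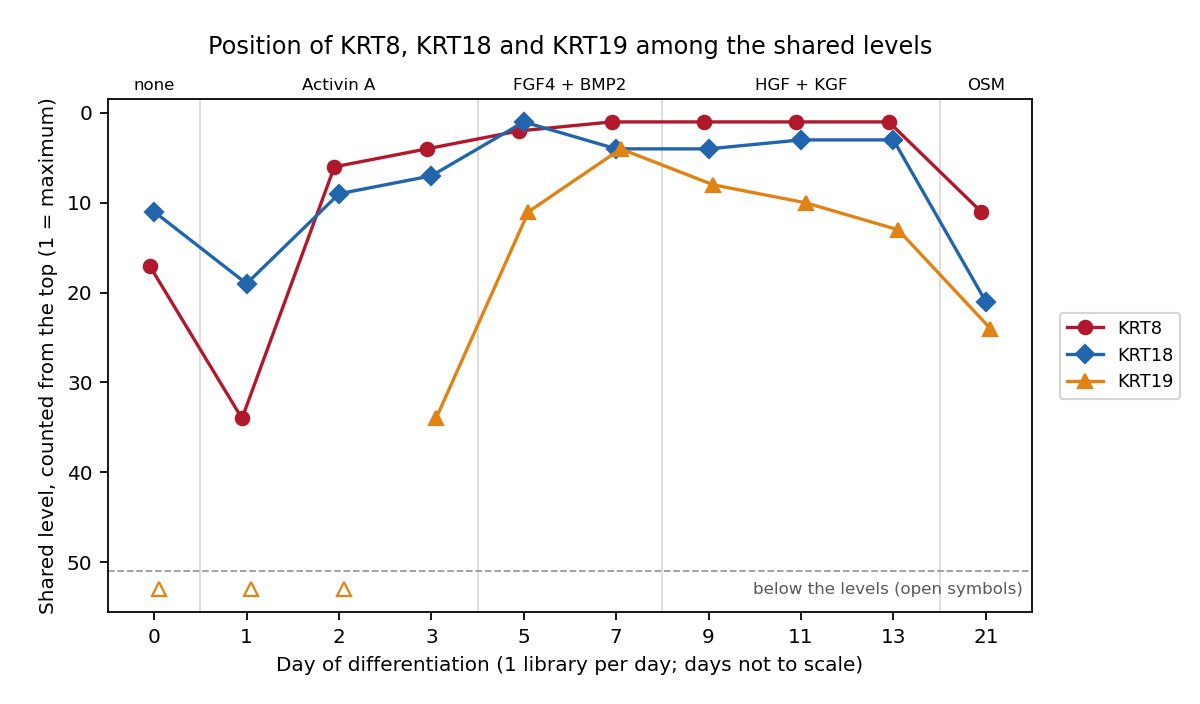
Place of KRT8, KRT18 and KRT19 among the 50 shared levels (vertical axis, 1 is the maximum) by day (horizontal axis). KRT8 and KRT18 stood lower on day 1 than on day 0, and on day 21 they stood at 11 and 21, and KRT19 entered the levels on day 3 at 34 and stood highest, at 4, on day 7.

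The calls among the members were set beside those among all genes. From day 0 to 3, 3 members passed the filter on low values and 0 were called, with 3.94% of 8934 genes called higher and 2.16% lower. From day 3 to 7, 2 of 3 were called higher, KRT8 and KRT19, with 5.63% of 9100 genes called higher and 4.41% lower. From day 7 to 13, 0 of 4 were called, with 3.08% of 8892 genes called higher and 2.46% lower. From day 13 to 21, 1 of 4 was called lower, KRT8, with 1.62% of 8786 genes called lower and 2.28% higher. From day 0 to 21, 1 of 4 was called higher, KRT19, with 11.9% of 9698 genes called higher and 11.5% lower. The medians of the members that passed were 1.43, 2.04, 0.17, -1.27 and 0.74 over these comparisons, beside medians of -0.06, -0.04, -0.05, -0.05 and -0.11 over all genes that passed. With the top 10 levels of the members set to the lowest of them, the member medians were 0.59, 0, 0, -0.34 and 0.74. With a threshold of 1 in place of 2, the members called from day 3 to 7 were again KRT8 and KRT19, and those called over the other comparisons were KRT8 and KRT19 higher from day 0 to 3 (11.1% of all genes), KRT19 lower from day 7 to 13 (8.21%), KRT8 and KRT18 lower from day 13 to 21 (9.08%), and KRT19 higher from day 0 to 21 (23.9%, with 26.4% lower). With the top 10 levels also set to the lowest of them, KRT8 differed by 0.59 (day 0 to 3), 0 (day 3 to 7) and -0.10 (day 13 to 21). KRT18 then differed by -0.79 from day 13 to 21 and KRT19 by -0.32 from day 7 to 13, so these calls were lost. The calls of KRT19 from day 0 to 3 (1.81), day 3 to 7 (1.21) and day 0 to 21 (2.12) remained. A member that passes only through the day on which it is high had to differ, and with 3 or 4 genes the medians above describe single genes.

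**Figure D3:**
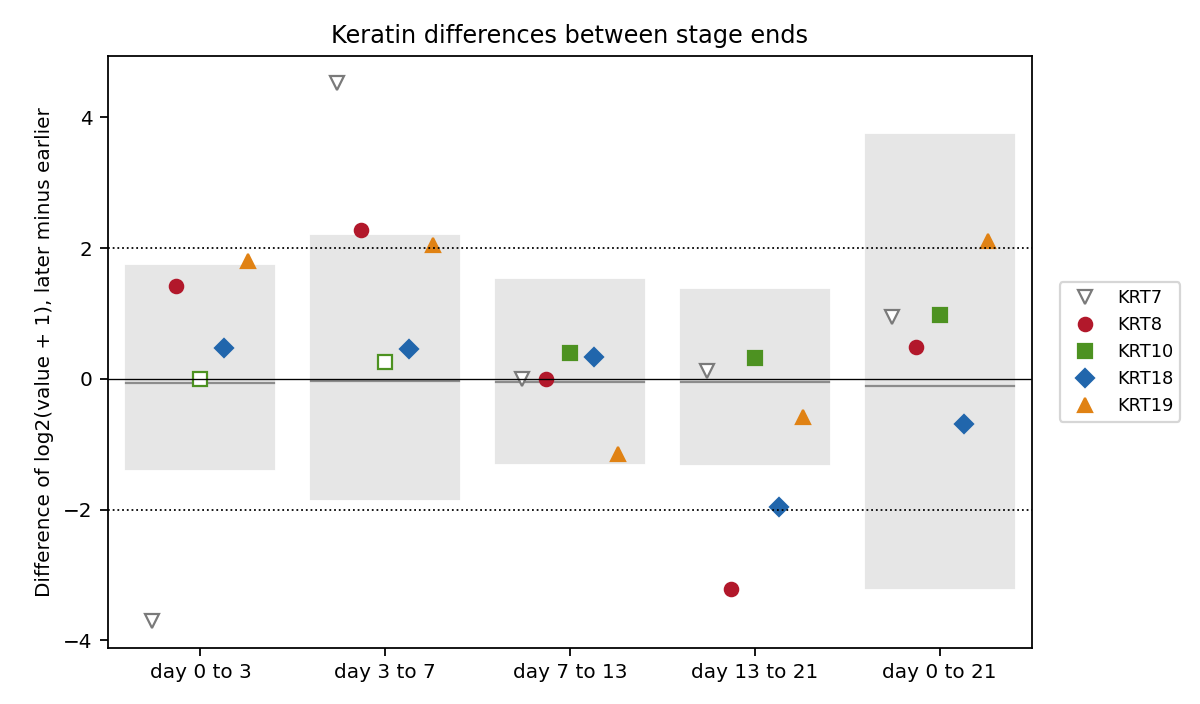
Difference of log2(value + 1), later minus earlier day (vertical axis), for each keratin gene between the ends of the steps (horizontal axis); dotted lines mark the threshold of 2 in each direction, grey bars the range from the 5th to the 95th percentile of all genes that passed the filter with their median, and open symbols values under 50 on both days. KRT8 lay at -3.21 between days 13 and 21 and at 2.28 between days 3 and 7, the latter just above the 95th percentile of 2.19.

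Libraries of different days within a step show how far values moved under the same treatment. Between days 9 and 11 the differences were 0.48 for KRT7, 0 for KRT8, -0.32 for KRT10, 0.33 for KRT18 and -0.28 for KRT19. For the 500 genes nearest in level to each member the SD of this difference was 0.44, 0.30, 0.45, 0.30 and 0.30, and over all genes 0.107% were called higher and 0.107% lower. Other days of the same step lay further apart: between days 1 and 2 of Activin A KRT8 differed by 1.66, KRT18 by 0.87 and KRT19 by 1.30, and between days 11 and 13 KRT7 differed by -1.54. None of these are replicates, and differences smaller than these, such as that of KRT19 between days 0 and 1, cannot be separated from them.

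As KRT8 and KRT18 form pairs, the ratio of their values was followed within each library. The ratio has no bearing on how much of each chain there was, since the values are not per length, and only its change over the days is described. The log2 ratio of KRT8 to KRT18 was -0.49 on day 0, -0.50 on day 1, 0.29 on day 2, 0.47 on day 3, -1.53 on day 5, 2.28 on days 7 and 9, 1.95 on days 11 and 13, and 0.70 on day 21. It was thus below 0 on days 0, 1 and 5 and above 0 on the other days. The change was -1.99 from day 3 to 5 and 3.81 from day 5 to 7, when the 2 genes exchanged the maximum. From day 13 to 21 it was -1.25, KRT8 falling from level 1 to level 11 and KRT18 passing from level 3 to level 21. With the top 10 levels set to the lowest of them, the ratio was 0 from day 2 to day 13 and the change from day 13 to 21 turned to 0.70. Its direction at the end of the course therefore depends on how far apart the top levels are taken to be.

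**Figure D4:**
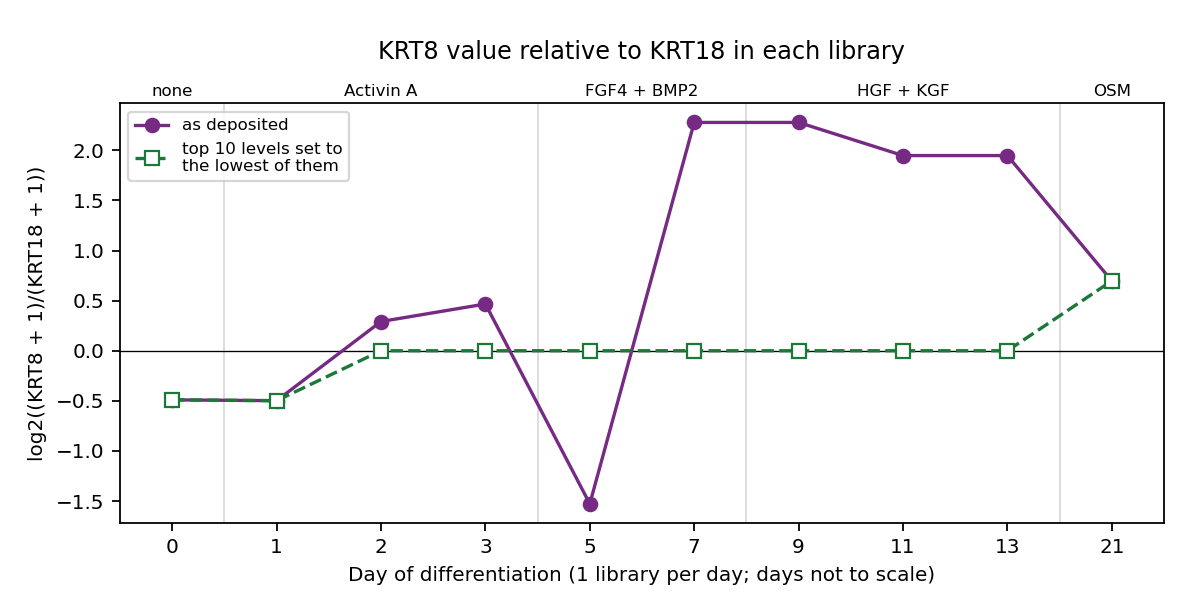
Log2 ratio of the KRT8 to the KRT18 value (vertical axis) in each library (horizontal axis), as deposited (circles) and with the top 10 levels set to the lowest of them (open squares). The deposited ratio ran from -1.53 on day 5 to 2.28 on days 7 and 9, whereas the other stayed at 0 from day 2 to day 13.

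Across the 10 libraries, which share the time course, the log2 values of KRT8 and KRT19 had a Pearson correlation of 0.90, KRT8 and KRT18 of 0.62, KRT18 and KRT19 of 0.61, and KRT7 and KRT18 of 0.07. These are descriptions over 10 points without replicates. Among 10746 genes with a value of at least 50 on any day, the genes whose course was most like that of KRT19 were FGFR3, a receptor of fibroblast growth factors (0.996), PPP1R15A, a phosphatase subunit of the stress response (0.991), and TPRG1L (0.985). FGFR3 went from 33 on day 0 to 1384 on day 7 and 348 on day 21. For KRT8 they were TMC7 (0.977), EPHA4, an ephrin receptor (0.977), and ATXN1L (0.975). EPHA4 stood at 18 on day 0, 1184 on day 11 and 26 on day 21. For KRT18 they were STK17A, a kinase (0.983), MMP15, a membrane metalloproteinase (0.929), and CRHBP, which binds corticotropin-releasing hormone (0.909), and CRHBP was at 282 on day 5 and at 26 or less on all other days. For KRT7 they were PPP1R12B, a myosin phosphatase subunit (0.992), SLC31A1, a copper transporter (0.983), and ROBO2, a SLIT receptor (0.975). For KRT10 they were SEC22B, a vesicle fusion protein (0.958), CSGALNACT2, an enzyme of chondroitin sulfate synthesis (0.949), and RNF6, a ubiquitin ligase (0.947).

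Apart from the members, KRT16 and KRT222 were the only keratin genes by symbol among the 12125. KRT16, a keratin of stressed epidermis, was at 0 on day 0, 2 on day 1, 31 on day 2, 28 on day 3, 130 on day 5, 18 on day 7, 15 on day 9, 6 on day 11, 5 on day 13 and 32 on day 21. Day 5, the library in which KRT18 held the maximum, was the only one in which KRT16 passed 50. KRT222 did not exceed 34.

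Of 11 listed genes of other intermediate filaments, 6 were found. VIM, which encodes the filament protein of mesenchymal cells, was at 286 on day 0, 302 on day 1, 1437 on day 2, 2168 on day 3, 2434 on day 5, 2168 on day 7, 2800 on day 9, 3865 on day 11, 4862 on day 13 and 2641 on day 21. VIM was lowest on days 0 and 1, as was KRT19, and highest on day 13, when KRT8 was still at the maximum. Between days 0 and 3 VIM and SYNM were called higher (2 of 6, beside 3.94% of all genes). From day 3 to 7 SYNM (142 to 20) and NEFM were called lower, 2 of 5 that passed the filter, beside 4.41% of all genes. Between days 0 and 21, 2 of 6 were called higher, VIM by 3.20 and SYNM, a partner of VIM and desmin, by 3.15, and 3 of 6 lower, beside 11.9% and 11.5% of all genes. These were the neuronal filament genes INA (from 80 to 0) and NEFL (from 128 to 2) and, named after its values were seen, NES, the filament gene of progenitor cells, by -3.44. Of the lamins, the filaments of the nucleus, LMNA was called higher from day 0 to 21 (94 to 407), and LMNB1 (478 to 34) and LMNB2 (980 to 144) lower.

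Keratin filaments are anchored at desmosomes, of whose 13 listed genes 10 were found. From day 0 to 21, 2 of 10 were called higher and 0 lower, beside 11.9% and 11.5% of all genes, and the median difference was 1.15, beside -0.11. DSP, which ties keratins to the desmosome, was at 376 on day 0, 431 on day 1, 628 on day 2, 770 on day 3, 1326 on day 5, 2970 on day 7, 2798 on days 9 and 11, 2022 on day 13 and 2970 on day 21. It was thus at its highest on day 7, as KRT8 and KRT19 were, and again on day 21, when KRT8 and KRT19 were lower. The difference between days 0 and 21 was 2.98. The DSP values of days 7, 9, 11 and 21 lie in the top 10 levels, as do those of KRT8 up to day 13. With those levels set to the lowest of them, KRT8 differed by -0.10 and KRT19 by -0.58 from day 13 to 21. DSC3, a desmosomal cadherin, was called higher by 2.31. The largest differences downwards were -0.72 for PKP4 and -0.59 for PPL, neither called. Over the single steps 1 of 10 was called higher from day 0 to 3 (PERP), from day 3 to 7 (DSC2) and from day 7 to 13 (DSC3), and 0 of 10 from day 13 to 21. The shares of all genes called higher over these steps were 3.94%, 5.63%, 3.08% and 2.28%. A single call among 10 genes is close to these shares. PERP and DSC2 were named after their values were seen.

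Of 8 listed plakins and hemidesmosome genes, 6 were found. From day 0 to 21, 1 of 6 was called lower, beside 11.5% of all genes. It was ITGA6, the laminin-binding integrin chain, at 567 on day 0 and 54 on day 21. CD151, its tetraspanin partner, differed by 1.08 and DST, a plakin, by 1.00. All 9 listed genes that bind or organise keratin filaments were found. From day 0 to 21, 0 of these 9 were called, beside 11.9% of all genes higher and 11.5% lower, and 0 over any other comparison. From day 0 to 21 their median difference was -0.58, with 0.87 for MAPK14, a kinase of stress signalling, -1.92 for DNAJB6, a chaperone of KRT18, and -1.60 for YWHAE, a 14-3-3 protein. Of 14 listed epithelial regulators, 9 were found and 5 passed the filter from day 0 to 21. KLF5, a zinc finger factor of epithelia, was called higher (2 to 74) and ESRP1, an epithelial splicing regulator, lower (424 to 102). GRHL1 differed by 1.53 and GRHL2 by -1.42, neither called. From day 3 to 7 OVOL1 (8 to 55) and OVOL2 (24 to 130) were called higher, named after their values were seen. These were 2 of 5 that passed the filter, beside 5.63% of all genes.

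**Figure D5:**
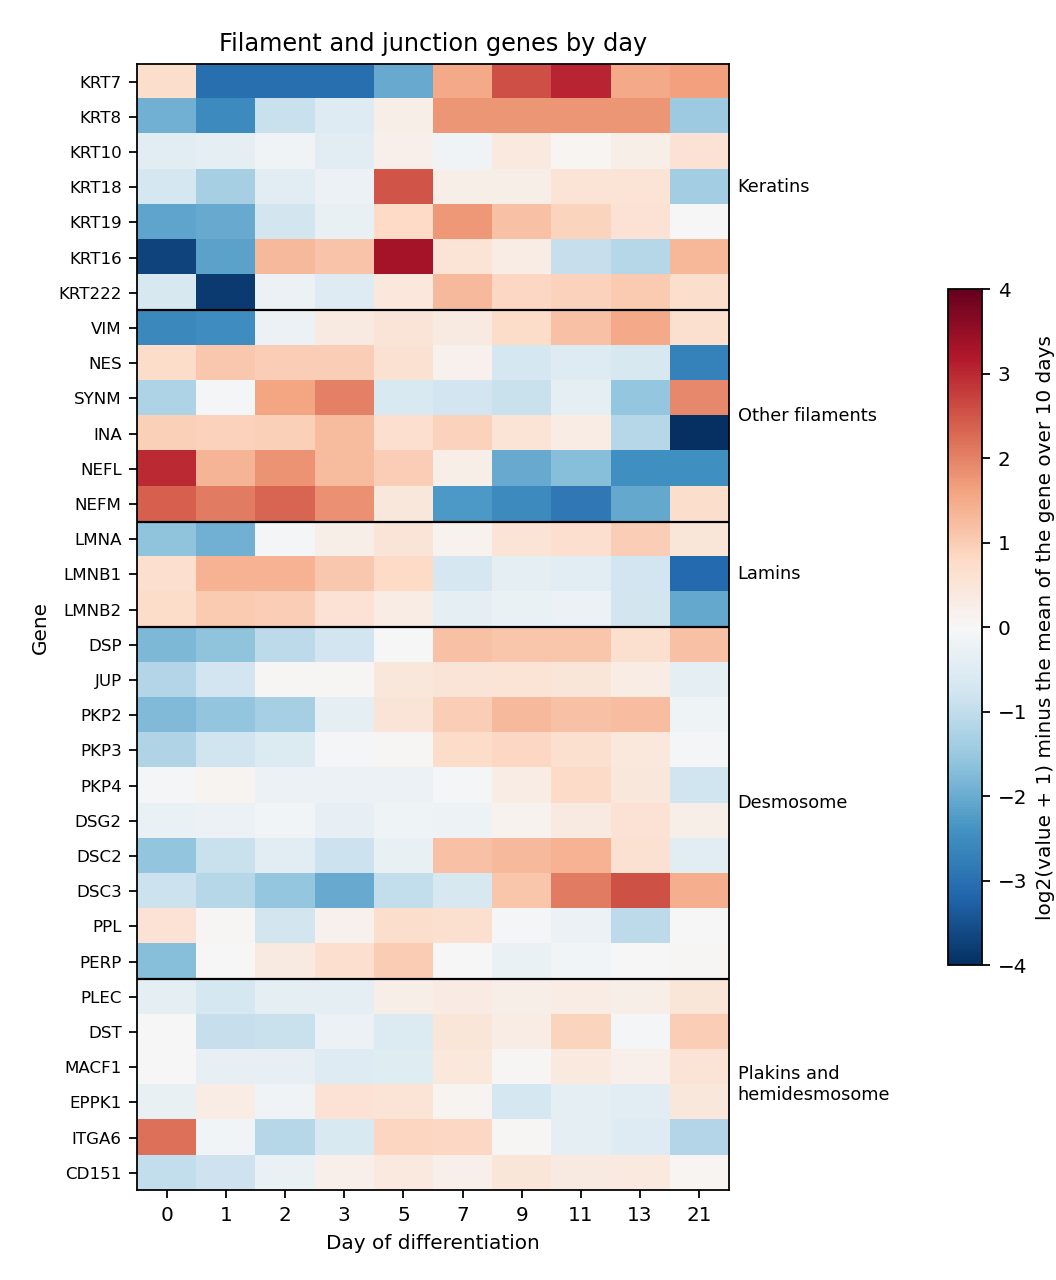
Filament and junction genes (rows, grouped by list) by day (columns), coloured by log2(value + 1) minus the mean of the gene over the 10 libraries. KRT8 was above its mean on days 7 to 13 and below it on day 21, whereas DSP stayed above its mean from day 7 to day 21. VIM was lowest on days 0 and 1. Colours use the values as deposited and so include moves among the top 10 levels.

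Because KRT7 and KRT19 also mark ducts and other epithelia, the genes of cell types that could be present were read beside them. All 12 hepatocyte genes were found and all 12 were called higher from day 0 to 21, beside 11.9% of all genes. Their values summed to 59 on day 0, 197 on day 3, 36727 on day 7, 57959 on day 13 and 87154 on day 21, with TTR, AFP and SERPINA1 at 18734 on day 21. Sums of lists, here and below, add values of the top levels, which give places and not amounts. A gene at 18734 can make up much of such a sum. ALB, the defining gene of hepatocytes and named outside the rule, was at 168 on day 13 and 4866 on day 21. As a sum of scores, the list was highest on day 21, in part through SERPINA1, which was at 2640 on day 13. On day 21 KRT8, KRT18 and KRT19 were all below their values of day 13. Not every hepatocyte gene was highest then: HNF4A went from 838 on day 13 to 470 on day 21, APOA1 from 4855 to 3428, APOA2 from 2636 to 2164, FGA from 3428 to 2796 and FGB from 3868 to 3438, all named after their values were seen.

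Of 12 biliary genes, 6 were found, among them neither SOX9 nor MUC1. Their values summed to between 648 and 892 on days 0 to 3, 2216 on day 5, 2685 on day 7, 3696 on day 13 and 6454 on day 21. From day 0 to 21, 4 of 6 were called higher, beside 11.9% of all genes. EPCAM was at 372 on day 0, 1279 on day 5, 1108 on day 7 and 704 on day 21. AQP1 (9 on day 7, 2796 on day 21) and SPP1 (55 on day 7, 1896 on day 21) were highest on day 21. EPCAM was thus lower on day 21 than on day 7, as KRT19 was, whereas AQP1 and SPP1 were higher.

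Other lists moved as well. The 9 stromal genes, all found, summed to between 846 and 2954 on days 0 to 5 and to 5049 on day 7, 38660 on day 13 and 41795 on day 21, 8 of 9 being called higher from day 0 to 21 (11.9% of all genes), with COL1A2 at 18734, COL3A1 at 6502 and COL1A1 at 6494 on day 21. The ninth, THY1, which pluripotent cells also express, was called lower (2164 to 12) and made up most of the day 0 sum. Of the 2 intestinal genes found of 5, both were called higher, VIL1 (4 to 374) and CDX2 (0 to 162). Of 11 trophoblast and amnion genes 6 were found, with sums between 399 and 1717, and GABRP was called lower (1642 to 104), and HAND1 (0 to 276) and GATA3 (2 to 51) higher. GATA3 was at 28 on day 3 and 388 on day 5, its highest, in the library in which KRT18 and KRT16 were highest too. The list did not peak there as a whole. ISL1 (50) and TFAP2C (48) were also highest on day 5. HAND1 was at 22 on day 5 (980 on day 13), GABRP at 94 (1642 on day 0) and ERVW-1 at 16 (41 on day 0). ISL1, TFAP2C and ERVW-1 were named after their values were seen. Of 10 mesothelial genes 5 were found, with sums between 105 and 271 up to day 13 and 866 on day 21, led by PDPN (746 on day 21), BNC1 (89 on day 21) and LRRN4 (78 on day 9). Of 6 endothelial genes 5 were found, with sums between 302 and 1950, led by TEK (889 on day 13), KDR (823 on day 13) and VWF (309 on day 3). Of 8 macrophage genes 2 were found, and they summed to 50 or less up to day 13 and to 324 on day 21, with CD68 at 259 and PTPRC at 65.

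Of 16 genes of stratified epithelium, 2 were found, SFN, which did not exceed 34, and DSC3. The 6 pluripotency genes were called lower from day 0 to 21, beside 11.5% of all genes. They summed to 12597 on day 0 and 119 on day 21, with POU5F1 falling from 4861 to 5, DNMT3B from 3862 to 77 and LIN28A from 2971 to 37. The 6 DE genes were called higher from day 0 to 3, beside 3.94% of all genes. They summed to 22 on day 0, 21876 on day 3 and 489 on day 7, with CER1 at 18734, EOMES at 1279 and SOX17 at 790 on day 3. Some markers went against the labels. LIN28A was highest on day 5 (4862) and still at 2970 on day 7, although days 5 and 7 are labelled hepatoblast. Its values of days 3 (2971), 5 and 7 all lie in the top 10 levels, so its rise to day 5 is a move among them. The pluripotency genes summed to 5616 on day 3 and 5876 on day 5, and only LIN28A rose between these days. The others all fell from day 3 to 5: POU5F1 (1280 to 440), DNMT3B (956 to 544), NANOG (286 to 26), SOX2 (82 to 2) and PRDM14 (41 to 2). SOX17 was at 530 on day 5, and ALB was low on day 13, a day labelled hepatocyte-like. The paper itself places day 13 at the hepatoblast stage and ALB at day 21, so low ALB goes against the label only. The part of stromal, intestinal, amnion and duct cells in the keratin values was not tested. Of the reference genes, ACTB, GAPDH and HPRT1 were called lower and B2M higher from day 0 to 21, with ACTB and GAPDH starting at the maximum. These were 3 and 1 of the 7 that passed, beside 11.5% lower and 11.9% higher of all genes.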

How the data were processed

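RNA-seq libraries of H1 cells on 10 days of hepatic differentiation were used, 1 library per day. The authors aligned reads with Bowtie2 2.2.0 and RSEM 1.2.17 to a transcriptome they name as mouse Ensembl, although genes and identifiers are human (the submitters' processing notes list mm10 and hg19), and normalized for GC content with EDASeq. The deposited values are scores, whole numbers for 12125 genes, not counts, and 0 columns of values were left unused. The paper states an average sequencing depth on a MiSeq for the whole course. Counts or depth per library are not given in the sources used here. How far the low values, such as those of KRT7, depend on depth was not tested. A value that 1 gene holds in each library within a shared level comes from a limited range of GC content: 6498, which KRT8 held once, was held by 6 genes with 52.5% to 58.9% GC, against 38.9% to 63.7% for the 5th to 95th percentile of 11961 genes. The members have 50.5% (KRT10) to 59.9% (KRT19).

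Groups followed the labelled day. Differences of log2(value + 1) were taken between days 0 and 3, 3 and 7, 7 and 13, 13 and 21, and 0 and 21, and called at 2 or more with a larger value of at least 50. No test was possible. The members and lists were chosen with earlier results of these data known. Genes named are the 5 members, other keratins reaching 50, in each pathway list the 2 largest rises and 2 largest falls from day 0 to 21 with a larger value of at least 50, in each marker list the 3 highest that reach 50, and the 3 genes of highest Pearson correlation with each member. Others are marked or shown as part of a count of 5 or fewer. Alternatives were pseudocounts of 0.1 and 5, median of ratios scaling, capped top levels, ranks, a difference of 1, and minimum values of 200 or none. Windows were compared with all GENCODE release 29 transcripts, on either strand, for the lowest-numbered coding transcript of a gene. Code was run in Python 3.11.15 with numpy 2.4.6, pandas 2.3.3, scipy 1.17.1 and matplotlib 3.10.9, and tested on simulated data. Single-cell qPCR and knockout data were not analysed here. Some single items are not reported here.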

Additional observations from a re-analysis of the deposited data

How the results depend on the processing

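With the top 10 levels set to the lowest of them, the members called higher between days 3 and 7 went from 2 to 0 and those called lower between days 13 and 21 from 1 to 0. The changes of the KRT8 to KRT18 ratio became 0.49 (days 0 to 3), 0 (days 3 to 5), 0 (days 5 to 7) and 0.70 (days 13 to 21), and 7 of the 15 genes of like course were shared with the values as deposited, against 5 of 15 with Spearman's correlation. With a threshold of 1, 2 members were called higher between days 0 and 3, 1 lower between days 7 and 13, and 2 lower between days 13 and 21. These member calls used the values as deposited, and with capped top levels as well only that of KRT19 between days 0 and 3 remained. In the pathway lists a threshold of 1 gave 12 genes called higher and 12 lower between days 0 and 21 in place of 6 and 7. Without the filter on low values 1 member, KRT7, was called lower between days 0 and 3, and with KRT7 included 3 members in place of 2 were called higher between days 3 and 7. Of 175 recomputed differences of single members, 154 stayed within the spread of genes of like level or, for ranks, kept their sign, 21 moved and 0 reversed. Reversal was counted only for called differences, and other pseudocounts or capping cannot turn a sign, so the 0 says little. The KRT8 to KRT18 ratio is not among these 175. Median of ratios scaling shifted the median of all genes by at most 0.19 between 2 days. Ranks gave differences of single genes but no counts of calls. No paired analysis was possible because there was 1 library per day. Depth per library is unknown, and values at the maximum cannot rank days 7 to 13 for KRT8.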
